A study of Mus musculus with 4 samples.

Results

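Plasmin, the protease that dissolves fibrin, is cut from plasminogen by tissue-type and urokinase-type plasminogen activators, and urokinase works largely at the cell surface on its receptor. Clotting begins when tissue factor meets factor VII, and endothelial cells oppose it with tissue factor pathway inhibitor, with thrombomodulin, which turns thrombin into an activator of protein C, and with the endothelial protein C receptor. From this system 8 genes, listed by name, were followed through the deposited count table: the activator genes Plat and Plau, the urokinase receptor gene Plaur, the protease inhibitor gene Serpine2, the tissue factor gene F3, and the anticoagulant genes Tfpi, Thbd and Procr. All 8 were found among the 24421 rows of the table, and all 8 were among the 12656 genes that passed the filter on low counts.

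The cells were lymphatic endothelial cells, negative for CD45 and positive for CD31 and GFP, from mouse lungs at postnatal day 0. Jun-cKO mice were Prox1-CreER;Junf/f;Rosa26-mTmG, with both Jun alleles floxed, and Jun-Ctrl mice were Prox1-CreER;Junf/+;Rosa26-mTmG, with 1 floxed and 1 wild-type allele, so that both groups carry a Prox1-driven, tamoxifen-dependent Cre, the reporter and at least 1 floxed allele. Each group had 2 libraries, each from pooled mice (3 to 5 per group by the protocol), called replicates 1 and 2 here. Neither protocol nor labels tell if a group's pair of libraries was sorted or amplified apart, so the p-values speak only of library-to-library spread, which may be technical. Tamoxifen dose and timing are not given in those sources either.

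Total counts were 15558476 and 6911821 in the libraries labelled Jun-cKO and 16037416 and 6483514 in the Jun-Ctrl libraries. Jun RNA was not lower in the libraries labelled Jun-cKO, at 524 and 474 CPM (read counts scaled to library size, with TMM factors) against 472 and 433 CPM in Jun-Ctrl (log2 fold change 0.14, SE 0.12), and edgeR's quasi-likelihood test gave it an adjusted p of 0.354. Jun has 1 exon, so its per-gene count is the count of that exon. Exons of the antisense gene Junos overlap it, and their reads cannot be told apart without strand. The labels do not say which part of Jun is floxed, and whether the allele was deleted was not tested. The libraries are therefore called Jun-cKO-labelled, and each direction below rests on that label. Of 10 lymphatic markers 9 were tested, of which 4 were higher, 1 was lower and 4 were not called. Their summed level was 18450 and 19030 CPM in Jun-cKO-labelled libraries against 14310 and 13170 CPM in Jun-Ctrl, most of it from Lyve1, Mmrn1 and Reln, which were among the higher. Flt4, a receptor for lymphatic growth factors, was the lower one (1201 and 897 CPM against 1677 and 1499 CPM in Jun-Ctrl). Prox1, whose promoter drives the Cre, was not called (log2 fold change -0.31, adjusted p = 0.0686), and Ccl21a had 0 counts in every library.

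The promoters of members that hold an AP-1 motif are shown because Jun is a subunit of AP-1, a transcription factor that binds TGANTCA. RefSeq promoter sequences (GRCm38.p6, 250 bases before to 50 after a start site) were searched for 4 members: F3, Procr, Serpine2 and Tfpi, the last with 2 start sites. Plat, Plau and Thbd had no promoter sequence in the set searched, and Plaur is not shown. TGANTCA, which reads the same on both strands, was found in 2 of these 5 promoters, with 2 matches for F3 and 1 for Procr. Of all 32851 promoters 7.81% held a match. Capitals mark the matches in the stretches below, which run 5′ to 3′ on the plus strand with 45 bases on each side of the outermost match.
F3, chr3:121723346-121723453, 191 to 84 bases before the start: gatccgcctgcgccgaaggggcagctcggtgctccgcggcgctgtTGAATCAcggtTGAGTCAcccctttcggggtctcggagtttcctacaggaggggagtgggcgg
Procr, chr2:155751018-155751114, 199 to 103 bases before the start: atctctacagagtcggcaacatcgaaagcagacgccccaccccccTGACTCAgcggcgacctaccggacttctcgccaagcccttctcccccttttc

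The F3 matches begin 146 and 135 bases before the start and lie 4 bases apart. The Procr match begins 154 bases before its start. These distances are to RefSeq starts. The RefSeq start of Procr lies downstream of the start of the gene span given further on (155751117), which is from GENCODE M21. The windows of Serpine2 and Tfpi held no TGANTCA. The Serpine2 window (chr1:79858616-79858915) lies inside the gene span given further on, and the 5′ end of that span (79861180) was not searched. The 8-base cyclic AMP response motif TGACGTCA was in none of the 5 windows and in 1.79% of all promoters. GGGCGG, the core of Sp1 sites, was found on either strand 6 times for Serpine2, 3 times for F3, 1 time in each Tfpi window and not for Procr, against 35.7% of all promoters with at least 1. These matches describe the letters of the windows and are not evidence of binding.

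Of the 8 genes, 6 passed an adjusted p of 0.05 between the Jun-cKO-labelled and Jun-Ctrl libraries, 3 in each direction. The tissue factor gene F3 was 5.08-fold lower, the urokinase receptor gene Plaur 1.78-fold lower and the urokinase gene Plau 1.76-fold lower. Plat, Serpine2 and Tfpi rose 1.32-, 1.33- and 1.31-fold, and the protein C pathway receptors Thbd and Procr were not called. Over all tested genes, 41.5% were called, 19.0% higher and 22.5% lower, so a call is common in this comparison. The median log2 fold change of the 8 was -0.02, against 0.01 for all tested genes.

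**Figure D1:**
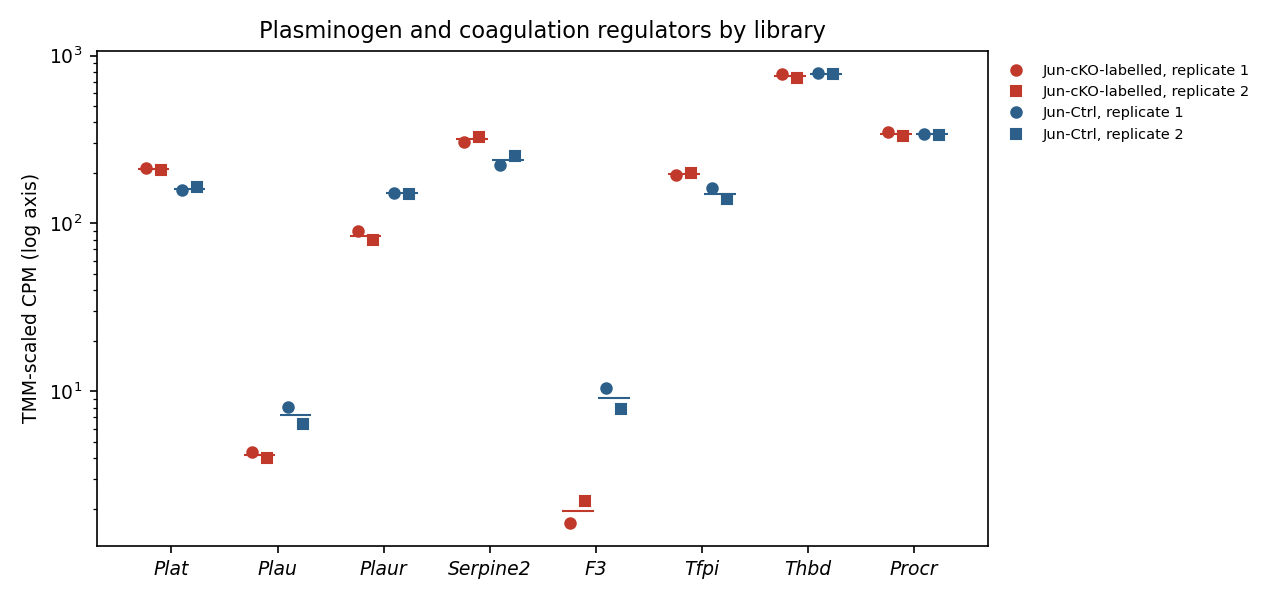
TMM-scaled CPM on a log axis for each member in the 2 Jun-cKO-labelled libraries (red, left) and the 2 Jun-Ctrl libraries (blue, right), with a line at each group's mean. F3, Plau and Plaur lie lower in red, Plat, Serpine2 and Tfpi higher, and Thbd and Procr lie at nearly equal levels, with F3 at 1.64 and 2.22 CPM in red against 10.4 and 7.80 CPM in blue.

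Markers of other cells moved in the same comparison. All 12 lung epithelial markers were called lower, with summed levels of 180 and 178 CPM in Jun-cKO-labelled libraries against 1673 and 1768 CPM in Jun-Ctrl. Of 10 mesenchymal markers 7 were lower (107 and 113 CPM against 333 and 336 CPM), as were the 8 tested of 10 immune markers (205 and 183 CPM against 471 and 462 CPM) and 2 of the 3 tested mesothelial markers (4.06 and 3.54 CPM against 50.8 and 61.8 CPM). Platelet markers were low, with 2 of the 4 tested of 6 called lower, Gp1bb (log2 fold change -1.94, adjusted p = 7.94e-05) and Pf4 (-1.07, adjusted p = 0.0475), summed levels of 7.14 and 5.31 CPM against 8.98 and 14.2 CPM, and Ppbp at 0 counts in every library. The T cell marker Cd3e also had 0 counts in every library, and the epithelial marker Epcam had 0.131 and 0 CPM in Jun-cKO-labelled libraries against 2.91 and 2.45 CPM in Jun-Ctrl. Of the 8 tested blood endothelial markers 3 were higher (Ednrb, Gpihbp1 and Vwf) and 3 lower (Plvap, Car4 and Cxcl12). Their sums were 1224 and 1218 CPM against 1064 and 1071 CPM. Ednrb, at 545 and 565 CPM against 296 and 286 CPM, weighed most in the higher sum, while Plvap was at 183 and 134 CPM against 326 and 336 CPM.

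F3, Plau and Plaur, and the pathway genes F7 and F13a1 described further on, are known from epithelial, mesenchymal or myeloid cells as well, and F13a1 from platelets; the part of those cells in their lower levels here was not tested. In bulk RNA, fewer cells of a type and less RNA per cell cannot be told apart. The same holds for more cells and more RNA per cell. The part of the mix of cells in the rises of Plat, Serpine2 and Tfpi, and in the changes of other pathway genes, was not tested either. Thbd and Procr, which blood endothelium also expresses, were not called. Of 5 pan-endothelial markers Tek was higher (log2 fold change 0.38, adjusted p = 0.0076), Tie1 was lower (-0.37, adjusted p = 0.0123) and 3 were not called, with sums of 2447 and 2486 CPM against 2262 and 2367 CPM in Jun-Ctrl.

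**Figure D2:**
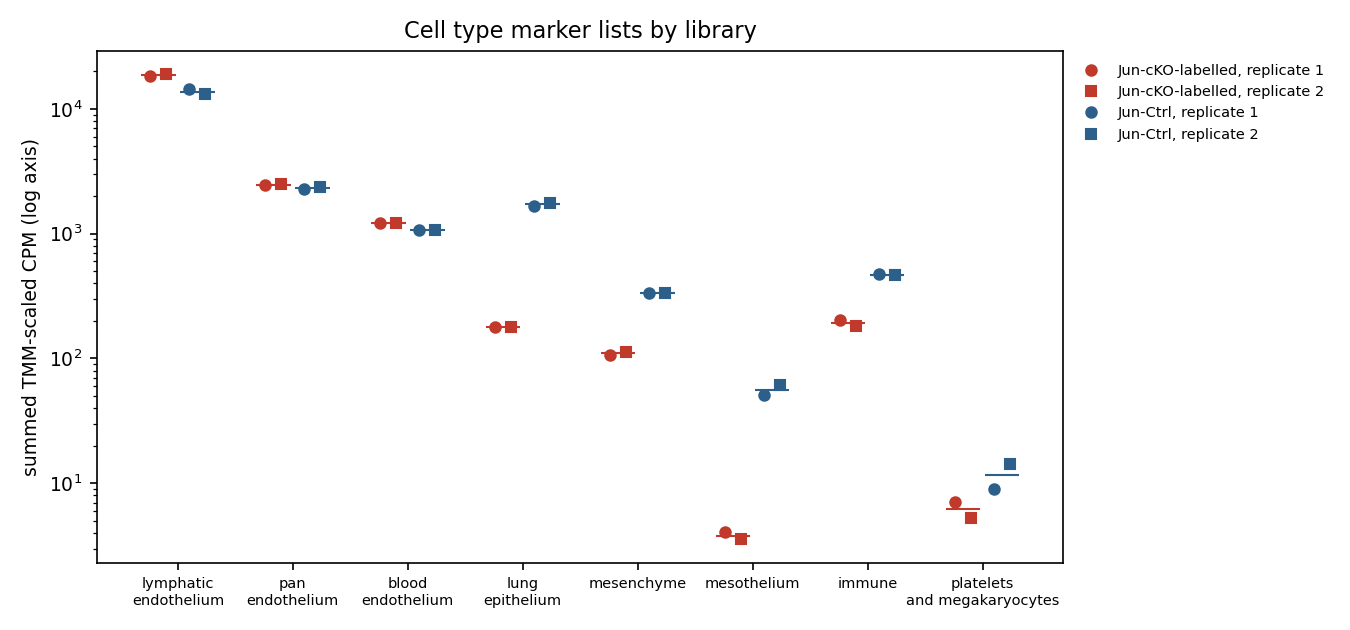
Summed TMM-scaled CPM on a log axis of each cell type marker list in the 2 Jun-cKO-labelled libraries (red, left) and the 2 Jun-Ctrl libraries (blue, right), with a line at each group's mean. Epithelial, mesenchymal, mesothelial and immune sums lie lower in red, at 180 and 178 CPM against 1673 and 1768 CPM for lung epithelium, and lymphatic sums lie higher, at 18450 and 19030 CPM against 14310 and 13170 CPM.

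F3 encodes tissue factor, the membrane receptor for factor VII that starts clotting, and lies on chromosome 3 (121723537 to 121735048, plus strand, GRCm38) with 6 exons. It had 25 and 15 counts in the Jun-cKO-labelled libraries against 172 and 51 counts in Jun-Ctrl. On the CPM scale that is 1.64 and 2.22 against 10.4 and 7.80, and the groups did not overlap. The log2 fold change was -2.34 (SE 0.29, adjusted p = 5.91e-09), a fold of 0.197 with a 95% interval of 0.131 to 0.295. The ratio of the summed counts was 0.187, with an exact 95% binomial interval of 0.130 to 0.263 that covers counting error only. F3 was a weakly expressed member in both groups, at the percentile of 31.3 of tested genes by mean level per kilobase, and its fold change stood at the percentile of 3.13.

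Plaur encodes the glycolipid-anchored urokinase receptor, which concentrates plasminogen activation at the cell surface (chromosome 7, 24462484 to 24475968, plus strand, 7 exons). Its level was 89.6 and 79.7 CPM in Jun-cKO-labelled libraries and 152 and 150 CPM in the Jun-Ctrl libraries. The 2 Jun-cKO-labelled libraries lay far below the 2 Jun-Ctrl libraries, which differed little from each other. The log2 fold change was -0.83 (SE 0.12, adjusted p = 1.43e-07), a fold of 0.563 with an interval of 0.478 to 0.663. F3 and Plaur were also the 2 members that passed a test against a change of at least 1.5-fold, which 9.42% of all tested genes passed in the lower direction.

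Plau, the ligand of that receptor and one of the plasminogen activators, was low in these cells (chromosome 14, 20836660 to 20843385, plus strand, 11 exons). It had 66 and 27 counts in the Jun-cKO-labelled libraries against 132 and 42 counts in the Jun-Ctrl libraries, which is 4.33 and 3.99 CPM against 8.005 and 6.43 CPM. The groups did not overlap, and the log2 fold change was -0.81 (SE 0.25, adjusted p = 0.00832). The call ended in DESeq2's Wald test (adjusted p = 0.0947) and without Jun-Ctrl replicate 1 (log2 fold change -0.63, adjusted p = 0.205).

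Plat, the tissue-type activator that endothelial cells release (chromosome 8, 22757727 to 22782844, plus strand, 14 exons), was the more abundant activator per length, with a mean of 82.9 CPM per kilobase against 1.77 for Plau in Jun-cKO-labelled libraries. It stood at 215 and 209 CPM in Jun-cKO-labelled libraries and at 158 and 165 CPM in Jun-Ctrl. Both Jun-cKO-labelled libraries lay above both Jun-Ctrl libraries, and the log2 fold change was 0.40 (SE 0.11, adjusted p = 0.00437), a fold of 1.32 with an interval of 1.12 to 1.54. Plat and its companion activator Plau therefore had fold changes of opposite sign. The Plat call ended without Jun-Ctrl replicate 1 (adjusted p = 0.0967).

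Serpine2, known as protease nexin-1, inhibits thrombin, urokinase and tissue-type activator (chromosome 1, 79794197 to 79861180, minus strand, 9 exons). In the Jun-cKO-labelled libraries it had 304 and 329 CPM, and in the Jun-Ctrl libraries 224 and 251 CPM, without overlap. The log2 fold change was 0.42 (SE 0.12, adjusted p = 0.00343), a fold of 1.33 with an interval of 1.13 to 1.57. Without Jun-Ctrl replicate 1 the adjusted p was 0.134.

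Tfpi encodes the inhibitor of the complex of tissue factor and factor VII, and thus the counterpart of F3 (chromosome 2, 84432855 to 84476775, minus strand, 10 exons in its largest transcript). The Jun-cKO-labelled libraries measured 195 and 200 CPM and the Jun-Ctrl libraries 162 and 139 CPM. The groups did not overlap, and the Jun-Ctrl libraries lay farther from each other than the Jun-cKO-labelled ones. The log2 fold change was 0.39 (SE 0.12, adjusted p = 0.00577). It dropped to 0.18 after a correction for GC content (adjusted p = 0.176) and to 0.27 without Jun-Ctrl replicate 2 (adjusted p = 0.205). Tfpi has the lowest transcript GC content of the 8, 39.7%, and Plaur the highest, 53.0%. Per-gene counts do not separate the secreted and the glycolipid-anchored forms of the protein.

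Thbd, the single-exon gene of thrombomodulin (chromosome 2, 148404466 to 148408188, minus strand), was at 776 and 737 CPM in Jun-cKO-labelled and at 784 and 778 CPM in Jun-Ctrl libraries. The groups lay close together without overlap. The log2 fold change was -0.05 (SE 0.12, adjusted p = 0.791), with an interval of the fold of 0.818 to 1.15. Procr, the receptor that presents protein C to the complex of thrombin and thrombomodulin (chromosome 2, 155751117 to 155755471, plus strand, 4 exons), was at 350 and 334 CPM against 341 and 338 CPM in Jun-Ctrl. Its 2 groups overlapped, at a log2 fold change of 0.01 (fold interval 0.857 to 1.18, SE 0.12, adjusted p = 0.952). For both receptors a change of 1.5-fold in either direction lies outside the interval, which rests on library-to-library spread that may be technical.

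The libraries of the 2 groups did not overlap for 7 of the 8 members, Procr being the exception, against 71.3% of all tested genes. Without Jun-Ctrl replicate 1, the calls on F3, Plaur and Tfpi were left, 3 of 8 against 24.5% of all genes then tested. The calls on F3 and Plaur held under each of the 15 alternatives run, with log2 fold changes from -2.52 to -2.08 for F3 and from -0.92 to -0.70 for Plaur. Transcript models of none of the 8 genes overlap exons of another gene in GENCODE M21.

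**Figure D3:**
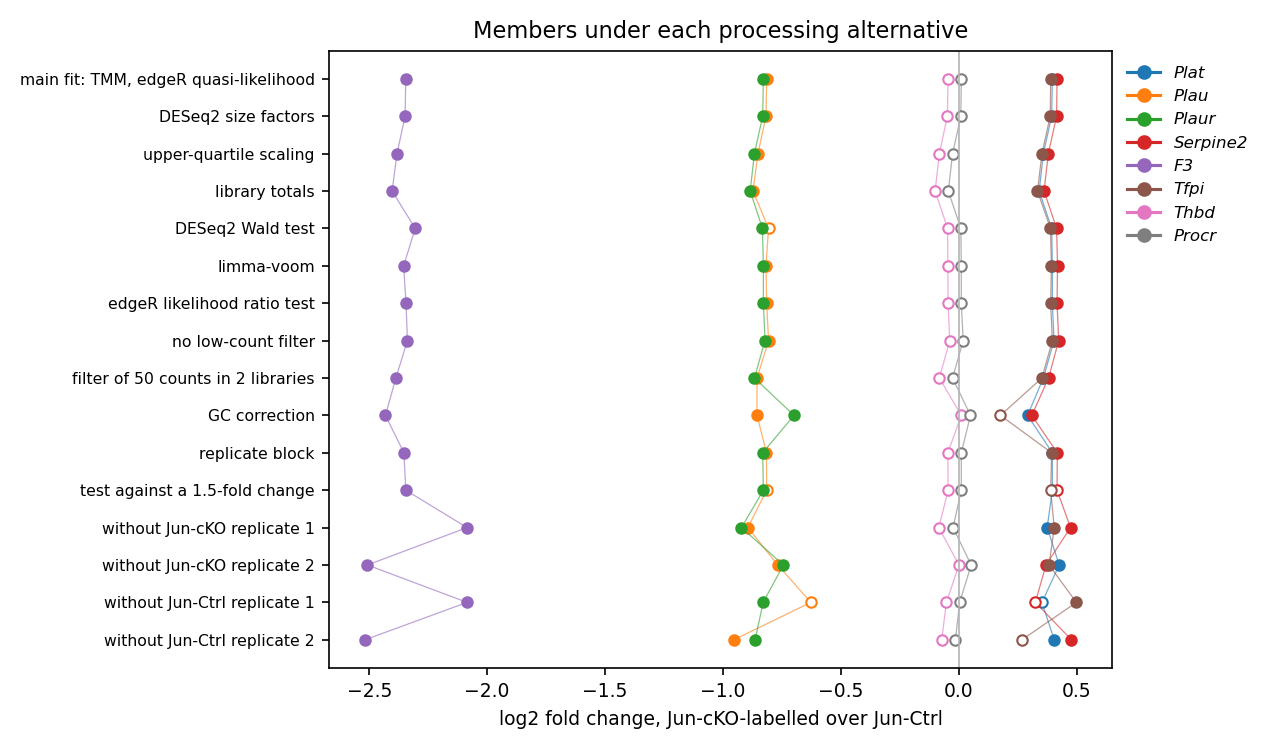
Log2 fold change (Jun-cKO-labelled over Jun-Ctrl) of each member on the horizontal axis under the main fit and 15 alternatives, 1 per line, with filled points at an adjusted p under 0.05 and open points above it. F3 stays between -2.52 and -2.08 and Plaur between -0.92 and -0.70 with filled points throughout, whereas Plau, Plat, Serpine2 and Tfpi each have 2 or 3 open points.

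Levels were compared between genes only after division by the deposited gene length. In CPM per kilobase, the Jun-cKO-labelled means ran in the order Procr (227), Thbd (203), Serpine2 (154), Plat (82.9), Plaur (60.6), Tfpi (52.3), Plau (1.77) and F3 (1.03). In Jun-Ctrl the order was Procr (226), Thbd (210), Serpine2 (116), Plaur (108), Plat (63.1), Tfpi (39.8), F3 (4.86) and Plau (3.08). Plat stood above Plaur in the Jun-cKO-labelled libraries and below it in Jun-Ctrl, and F3 stood below Plau in the Jun-cKO-labelled libraries and above it in Jun-Ctrl. Within a group, neighbours in these orders did not overlap between libraries, but Serpine2 and Plaur met in Jun-Ctrl, where the lower Serpine2 value and the higher Plaur value were both 109 CPM per kilobase and their means differed by less than the Serpine2 SD of 9.18. The 2 protein C pathway receptors thus led the order in both groups, at the percentiles of 97.0 (Procr) and 96.7 (Thbd) of all tested genes, and Plau stood at 27.9. How evenly the amplified RNA covers each gene is not known here, and it affects such comparisons.

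Among the 8 and the 23 tested pathway genes described next, the profile over the 4 libraries most like that of Thbd was Procr, at a Euclidean distance of 0.057 between log2 CPM values centred on their means. By the same measure Plat and Serpine2 were each other's nearest (0.133), as were Plau and Plaur (0.226). Tfpi was nearest to the thrombin receptor gene F2r (0.073) and F3 to the carboxylase gene Ggcx (0.413). The values were centred but not scaled, so genes with like fold changes lie close by this measure. These are descriptions over 4 libraries and not tests of shared regulation.

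Of 43 other genes of the plasminogen and coagulation system, 23 were tested, 7 of which rose and 7 fell, with a median log2 fold change of 0.03. Over all tested genes 41.5% were called, 19.0% higher and 22.5% lower, and the counts for the small groups below are to be read beside that share. Among those not tested, 9 had 0 counts in every library, including the fibrinogen chain genes Fga and Fgb and the factor genes F9 and F11, which liver makes. Plg, the gene of plasminogen itself, had 0 and 2 counts in the Jun-cKO-labelled libraries and 0 counts in both Jun-Ctrl libraries. Its exons overlap those of Slc22a3 on the opposite strand.

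In the plasminogen system, 2 of 5 tested genes fell and 0 rose. Lrp1, an endocytic receptor that clears inhibitor-bound proteases, had 11 and 12 counts in the Jun-cKO-labelled libraries against 64 and 23 counts in Jun-Ctrl (log2 fold change -1.79, SE 0.40, adjusted p = 0.000341). Its call ended when Jun-cKO-labelled replicate 1 was left out (-1.08, adjusted p = 0.0744), or Jun-Ctrl replicate 1 (0.056). S100a10, which with annexin A2 forms a plasminogen receptor, was the other that fell (log2 fold change -0.39, adjusted p = 0.00825), and its call ended without Jun-Ctrl replicate 2 (0.0824). Anxa2, the annexin of that pair, was not called at 1095 and 1185 CPM against 1337 and 1431 CPM in Jun-Ctrl (log2 fold change -0.28, adjusted p = 0.0708). Its exons overlap those of the antisense gene Gm16144. Serpinb6a had a log2 fold change of 0.18 without a call, and its exons overlap those of Ripk1 and Nqo2, whose reads cannot be told apart from its own without strand.

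Among clotting factor genes 2 of 5 tested fell and 1 rose. F13a1, the fibrin-crosslinking subunit, had 20 and 2 counts in the Jun-cKO-labelled libraries against 165 and 68 counts in Jun-Ctrl (adjusted p = 1.28e-11), with a ratio of summed counts of 0.0987 and a counting interval of 0.0607 to 0.153. Its Jun-cKO-labelled libraries differed from each other, and the log2 fold change of -3.37 was -5.05 without Jun-cKO-labelled replicate 1 and -2.94 without replicate 2 of that group, called lower in both. F7, the factor that binds tissue factor, had 3 and 2 counts against 36 and 19 counts in Jun-Ctrl (adjusted p = 7.5e-06), with a ratio of 0.0950 and a counting interval of 0.0297 to 0.235. Both had fewer than 25 counts in each Jun-cKO-labelled library. The exons of F13a1 overlap those of the antisense gene Gm30489, whose reads cannot be told apart without strand. Vwf, the platelet-tethering protein of blood endothelium, was at 5.18 and 4.72 CPM against 2.12 and 4.28 CPM (log2 fold change 0.79, SE 0.32, adjusted p = 0.039), and its log2 fold change was 0.21 without Jun-Ctrl replicate 1 (adjusted p = 0.72). That call also ended in DESeq2 (0.272), without Jun-cKO-labelled replicate 1 (0.161), and with upper-quartile scaling or library totals (0.0502 and 0.0568).

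Thrombin receptors went both ways, 1 higher and 1 lower of 3 tested. F2r, the main thrombin receptor of endothelium, rose to 276 and 284 CPM in Jun-cKO-labelled libraries, against 218 and 199 CPM in Jun-Ctrl (log2 fold change 0.42, SE 0.12, adjusted p = 0.0026). The call ended without Jun-Ctrl replicate 2 (adjusted p = 0.0991). F2rl1, which trypsin-like proteases and the complex of tissue factor and factor VII activate, fell (log2 fold change -0.54, adjusted p = 0.0018), but not without Jun-cKO-labelled replicate 2 (-0.35, 0.0636).

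Anticoagulant genes included 2 higher and 1 lower of 5 tested. Pros1, protein S, the cofactor of activated protein C and of tissue factor pathway inhibitor, stood at 319 and 346 CPM in Jun-cKO-labelled libraries against 242 and 227 CPM in Jun-Ctrl (log2 fold change 0.50, SE 0.12, adjusted p = 0.000482). Serpinc1, antithrombin, was low, with 66 and 23 counts against 31 and 16 counts in Jun-Ctrl (log2 fold change 0.93, SE 0.33, adjusted p = 0.0219). Its exons overlap those of Zbtb37, and the call ended in DESeq2 (0.195) and without Jun-cKO-labelled replicate 1, Jun-Ctrl replicate 1 or Jun-Ctrl replicate 2 (0.255, 0.298 and 0.0585). Entpd1, an enzyme that degrades the platelet agonist ADP, fell to 2.23 and 2.21 CPM, against 6.61 and 4.90 CPM in Jun-Ctrl (log2 fold change -1.41, SE 0.30, adjusted p = 0.000203), a call that ended without Jun-Ctrl replicate 1 (0.0643). Anxa5, which covers exposed phosphatidylserine, was at 1126 and 988 CPM against 1074 and 1033 CPM in Jun-Ctrl, with a log2 fold change of 0.01.

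Of 5 genes that process clotting factors 3 rose and 1 fell. Ggcx, the vitamin K-dependent carboxylase that protein S, protein C and several clotting factors need, fell to 29.4 and 30.1 CPM in Jun-cKO-labelled libraries, against 102 and 97.9 CPM in Jun-Ctrl. The replicates of each group lay close together, and the log2 fold change was -1.75 (SE 0.13, adjusted p = 1.15e-15), kept under all 15 alternatives. The vitamin K epoxide reductase gene Vkorc1 and its paralog Vkorc1l1, which regenerate that cofactor, had log2 fold changes of 0.57 and 0.53 (adjusted p = 0.000769 and 0.0134). The exons of Vkorc1 overlap those of the gene model Gm21974. The Vkorc1l1 call ended in DESeq2, after GC correction and without each library but Jun-cKO-labelled replicate 2 (adjusted p up to 0.125). Mcfd2, which with Lman1 carries factors V and VIII out of the endoplasmic reticulum, had a log2 fold change of 0.28 (adjusted p = 0.0443) that was not called under 10 of 15 alternatives. Lman1 was at 185 and 208 CPM against 171 and 168 CPM in Jun-Ctrl, without a call.

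**Figure D4:**
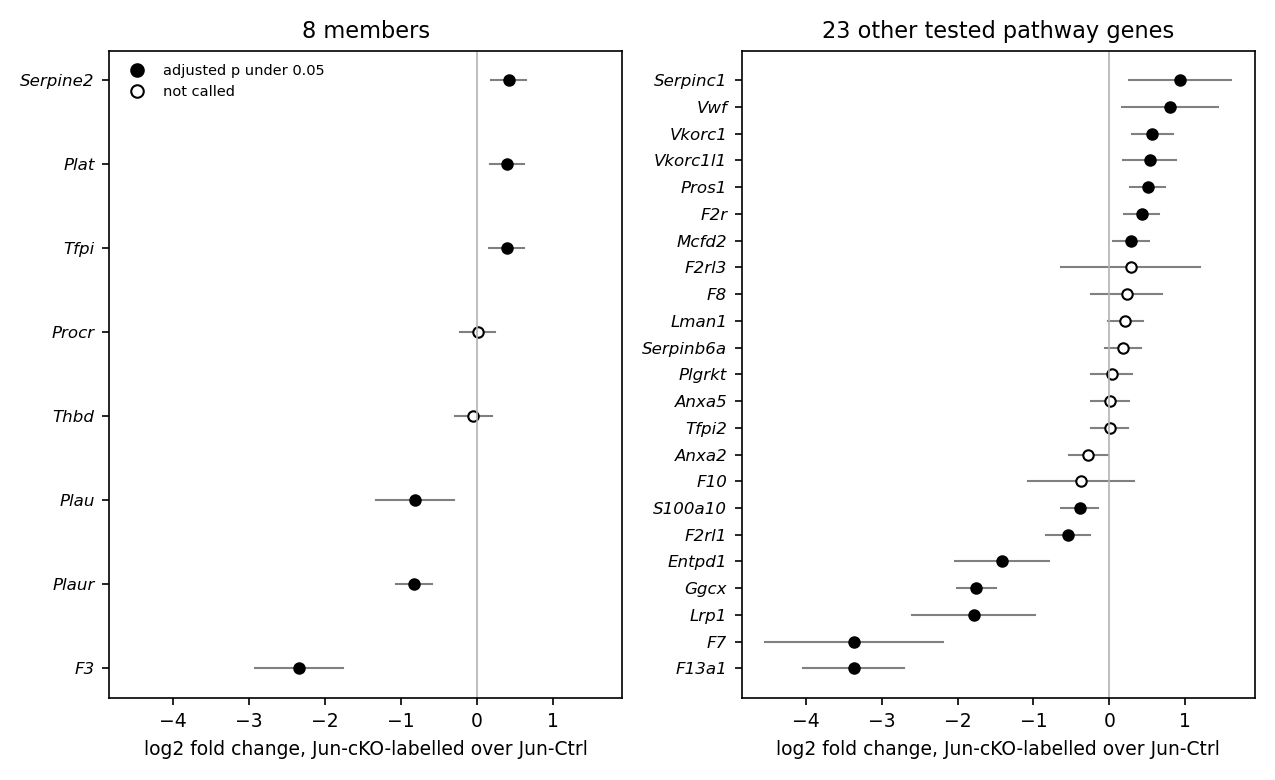
Log2 fold change (Jun-cKO-labelled over Jun-Ctrl, horizontal axis) with its 95% interval for the 8 members (left) and the 23 other tested pathway genes (right), sorted by value, with filled points at an adjusted p under 0.05. F3 at -2.34 has the lowest value among the members, and F13a1 at -3.37 and F7 at -3.36 have the lowest among the other genes.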

How the data were processed

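The authors deposited unnormalized counts of reads for each gene and library, next to each gene's length. Per the labels' protocols, PicoPure-isolated RNA was amplified (RiboAmp HS PLUS) before library preparation with NEBNext Ultra II DNA, a kit that does not mark strand. The design text has cells from 3 replicates of a group mixed first. The submitters' processing notes list mm10, STAR 2.7.2a, edgeR 3.28.1 and featureCounts 1.6.4, with no role for any. Gene annotation and strand setting: not given in the sources used here.

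Columns were matched to libraries by title. Within a group, libraries varied beyond sampling noise (median chi-square per gene 1.48 in Jun-cKO and 1.21 in Jun-Ctrl, against 0.455). The main test was that of edgeR 4.0.16 under R 4.3.3 (filterByExpr, TMM, glmQLFit and glmQLFTest, Jun-cKO minus Jun-Ctrl, no block), with Benjamini-Hochberg adjustment over all 12656 tested genes and calls at an adjusted p under 0.05. Standard errors are the fold change over the root of F. The GC correction enters a loess curve (span 0.5) on transcript GC content (GENCODE M21, 12188 tested genes) as an offset. A distance between profiles used CPM plus 0.5. Other alternatives used DESeq2 1.42.0 and limma 3.58.1. The tests were tried on simulated counts first.

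Members, gene lists and alternatives were chosen with earlier results of these data known. Named are all members, Jun, and of the pathway list the 6 smallest p-values among called genes in each direction and the 4 uncalled genes with the highest CPM. S100a10, Mcfd2, Plg and the single markers were named after their values were seen. A pathway gene and a promoter are not reported here.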

Additional observations from a re-analysis of the deposited data

How the results depend on the processing

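Scaling by DESeq2 size factors, upper quartiles or library totals, the edgeR likelihood ratio test, limma-voom, both other count filters and a fit with the replicate mark as a block left each of the 6 member calls in place, 3 higher and 3 lower. Deviations of libraries with the same mark from their group means correlated at 0.0827 over genes, and the mark is not known to pair samples. Against a change of 1.5-fold, 1453 genes, 2 members (F3 and Plaur) and 5 pathway genes were called, in place of 5251, 6 and 14. Under that test the adjusted p was 1 for Plat, Serpine2 and Tfpi (log2 fold changes 0.40, 0.42 and 0.39, as in the main fit) and 0.343 for Plau (-0.81). Plau was at -0.81 without a call in DESeq2, and Tfpi at 0.18 without a call after GC correction. With that correction Plat (0.29), Serpine2 (0.31) and Plaur (-0.70) had smaller changes than in the main fit but stayed called. F3 (-2.43) and Plau (-0.86) had larger ones. The filter of 50 counts, which tests fewer genes, called 9 pathway genes. Leaving out 1 library at a time gave 2992 to 4794 calls over all genes, 3 to 6 over members and 8 to 12 over pathway genes, the lowest without Jun-Ctrl replicate 1, while leaving out Jun-Ctrl replicate 2 left 3425 over all genes. Over these fits the log2 fold change ran from 0.35 to 0.43 for Plat, -0.95 to -0.63 for Plau, 0.32 to 0.48 for Serpine2, 0.27 to 0.50 for Tfpi and -0.025 to 0.052 for Procr. Procr also changed sign with upper-quartile scaling and the filter of 50 counts (-0.027 each) and with library totals (-0.045), and Thbd after GC correction (0.010), none with a call. AP-1 matches were found in 2 members also with the 250 bases before the start alone. F3 and Plau rest on few reads: 3 counts equal 0.197 and 0.443 CPM in the Jun-cKO-labelled and 0.182 and 0.459 CPM in the Jun-Ctrl libraries. Count intervals and this floor cover counting error only: the RNA was amplified, and no molecular identifiers mark single molecules. The causes of these differences were not tested.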
